A study of Mus musculus with 12 samples.

Results

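The adaptors and kinases that carry a Toll-like receptor signal into the cell were followed across 12 Affymetrix Mouse Gene 1.0 ST arrays of primary mouse microglia, the macrophages of the brain. The set was fixed by name and holds 10 genes: Myd88, Tirap, Irak1, Irak2, Irak3, Irak4, Ticam1, Ticam2, Tbk1 and Ikbke. Each gene was read from a probe set annotated to that symbol alone, taking the brightest by mean over the 12 arrays. For 9 of the 10 genes 1 such probe set was found, and Irak4 was not analysed here. All 9 lay above the signal used to leave out dim genes (5.36 log2), so they are 9 of the 15273 genes tested.

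The wild-type microglia and those labelled as TLR4 knockout were kept for 24 h either in hypoxic or hypoglycemic conditions, called ischemia here, or under normal oxygen or glucose, called control. All then had 24 h of normal conditions (reperfusion), so each array shows RNA after recovery. The 4 groups hold 3 arrays each, numbered 1 to 3. Mouse strain, age and the nature of the Tlr4 alteration are not given in the sources used here, nor is it stated whether the 3 arrays of a group stand for 3 separate cultures. If they do not, the spread behind the p-values may be technical. The wild-type ischemia arrays carry a source name that reads as normoxia, while their titles and the series' key place them under hypoxia; the titles were followed.

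Values are log2 signals as the authors normalized them, and a difference of 1 is a 2-fold change. Arrays of a group correlated at 0.976 or more, and their number limits the precision. Knockout-labelled control array 3 stood apart, with a median correlation of 0.976 with the other arrays against 0.982 to 0.987 for the rest. The Tlr4 probe set did not check the labels, since it read 8.74 ± 0.18 (SD, n = 6) in wild-type arrays and 8.71 ± 0.22 (SD, n = 6) in those labelled as knockout, which are therefore called knockout-labelled. All 9 microglia markers with a probe set passed the dim filter, with array means of the list between 9.47 and 10.09. Single markers differed widely as means over the 12 arrays, from P2ry12 at 5.75 and Tmem119 at 6.51 to Csf1r at 12.27. One protocol field names myocytes. All 8 myocyte markers passed the dim filter too, so passing it does not tell microglia from myocytes. The mean of the 8 lay between 6.18 and 6.45 on every array, where array medians ran from 6.30 to 6.40.

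As background, Toll-like receptors signal through 2 sets of adaptors. Myd88 serves nearly all of these receptors and the interleukin-1 receptors, and Tirap brings it to Tlr2 and Tlr4 at the cell surface. Myd88 gathers the kinases Irak4, Irak1 and Irak2, which pass the signal to Traf6 and on to NF-kB, while Irak3, found mainly in macrophages, acts as a brake on this complex. Ticam1, also called TRIF, serves Tlr3 and, through the bridging adaptor Ticam2 (TRAM), Tlr4 inside endosomes. It leads to the kinases Tbk1 and Ikbke (IKK-epsilon), which phosphorylate Irf3 and Irf7 and so start type I interferon production. Myd88, Tirap and the Irak genes are called the Myd88 arm below, and Ticam1, Ticam2, Tbk1 and Ikbke the Ticam1 arm, although Tbk1 and Ikbke also serve other sensors.

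Knockout-labelled and wild-type microglia were compared within each condition, and of the 9 genes Ikbke passed the test. Its signal was lower in knockout-labelled than in wild-type microglia in both conditions, to 0.544 times the wild-type signal in control cells and to 0.432 times after ischemia. Irak3 and Myd88 lay lower too, by smaller amounts that did not pass the test over all genes. Ticam1, Tbk1, Irak1 and Irak2 had overlapping groups in both conditions.

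**Figure D1:**
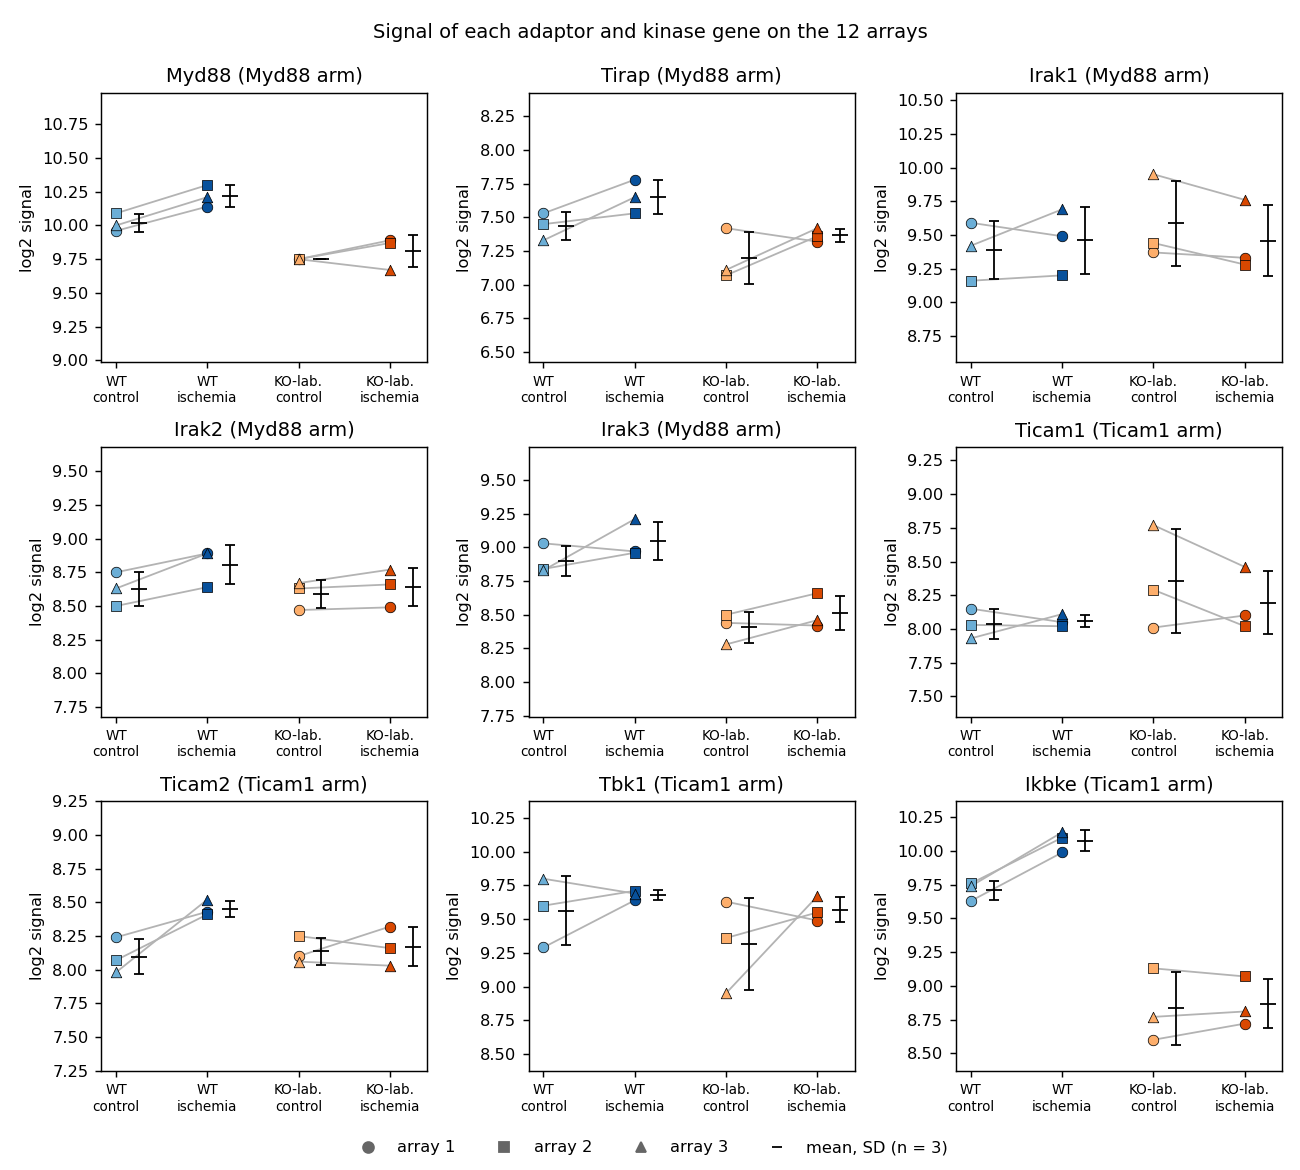
The log2 signal (vertical axis, each panel spanning 2 log2 units) of the 9 measured genes on the 12 arrays, by group, with symbols for array number, grey lines joining same-numbered arrays of a genotype, and bars for the mean and SD (n = 3). Ikbke separates the genotypes, with wild-type arrays at 9.63 to 10.14 and knockout-labelled arrays at 8.60 to 9.13.

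Among the kinases of the Ticam1 arm, Ikbke read 9.63, 9.76 and 9.74 in wild-type control arrays 1, 2 and 3 and 9.99, 10.10 and 10.14 after ischemia. In knockout-labelled arrays it read 8.60, 9.13 and 8.77 in control cells and 8.72, 9.07 and 8.81 after ischemia. Every wild-type array was above every knockout-labelled one, and the brightest knockout-labelled arrays were those numbered 2. The difference in control cells was -0.88 (SE 0.14, 95% interval -1.17 to -0.59, limma adjusted p = 0.0424), and 0.0589% of all genes were called in that comparison. After ischemia it was -1.21 (SE 0.14, interval -1.50 to -0.92, limma adjusted p = 0.00136), where 0.714% of genes were called. In each of these comparisons Ikbke was the 1 member called, of 9 measured.

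The control-cell call of Ikbke lies close to the threshold. It was lost on leaving out any of 9 arrays singly, and was kept without wild-type ischemia array 2, knockout-labelled ischemia array 2 or knockout-labelled control array 2, while the difference stayed between -1.03 and -0.76 (limma adjusted p from 0.00707 to 0.355 over all 20 alternatives). The call after ischemia held under all 20 alternative settings (adjusted p from 0.00023 to 0.0135, difference from -1.31 to -1.14). Arrays of a genotype that share a number also shared their deviations from the group means, so the genotypes were also compared on the mean of each same-numbered pair, a setting chosen after the values were seen. There Ikbke was 2.06-fold higher in the wild type (difference -1.04, interval -1.33 to -0.76, n = 3 pairs a genotype, limma adjusted p = 0.0430), in a fit that called 0.0982% of genes. A two-sided exact permutation test of the 3 against 3 pair means gave p = 0.1, the smallest it can give.

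Tbk1, the close relative of Ikbke that most cells express, had no called difference between genotypes. It read 9.29, 9.60 and 9.80 in wild-type control arrays and 9.64, 9.71 and 9.69 after ischemia, against 9.63, 9.36 and 8.95 in knockout-labelled control arrays and 9.49, 9.55 and 9.67 after ischemia. The genotype difference was -0.25 in control cells (interval -0.60 to 0.10) and -0.11 after ischemia (interval -0.46 to 0.24). Its lowest value, 8.95, came from knockout-labelled control array 3, and without that array the control-cell difference was -0.07. The difference was -0.13 without wild-type control array 3, -0.38 without wild-type control array 1 and -0.40 without knockout-labelled control array 1, none of them called.

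The adaptors of the Ticam1 arm had no called difference between genotypes. Ticam1 ran from 7.93 to 8.15 in wild-type arrays and from 8.01 to 8.77 in knockout-labelled ones, with differences of 0.32 in control cells (interval -0.05 to 0.69) and 0.13 after ischemia (interval -0.24 to 0.50). The highest value was again that of knockout-labelled control array 3, without which the control-cell difference was 0.11; without knockout-labelled control array 1 it was 0.49. Ticam2 differed by 0.04 in control cells and by -0.28 after ischemia (interval -0.51 to -0.06, limma adjusted p = 0.434), where its groups did not overlap.

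In the Myd88 arm the lower signals in knockout-labelled microglia were those of Irak3, Myd88 and Tirap. Irak3 read 9.03, 8.84 and 8.83 in wild-type control arrays and 8.97, 8.96 and 9.21 after ischemia, against 8.44, 8.50 and 8.28 and then 8.42, 8.66 and 8.46 in knockout-labelled arrays. All 6 wild-type arrays exceeded all 6 knockout-labelled arrays. The difference was -0.50 in control cells (SE 0.11, limma adjusted p = 0.251) and -0.53 after ischemia (SE 0.11, limma adjusted p = 0.0534), just short of the threshold. The after-ischemia value passed in 4 of 20 alternative settings (limma adjusted p from 0.0258 to 0.283), among them the one without knockout-labelled control array 3 (limma adjusted p = 0.0477).

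Myd88 read 9.96, 10.09 and 10 in wild-type control arrays and 10.14, 10.30 and 10.21 after ischemia. The knockout-labelled arrays read 9.75 on all 3 control arrays and 9.89, 9.87 and 9.67 after ischemia, so that the genotypes again did not overlap. The difference was -0.27 in control cells (interval -0.47 to -0.07, limma adjusted p = 0.623) and -0.40 after ischemia (interval -0.60 to -0.21, limma adjusted p = 0.0719). Neither passed under any of 20 alternative settings (limma adjusted p from 0.0592 to 0.239 after ischemia). Tirap, the adaptor that places Myd88 at Tlr2 and Tlr4, lay between 7.33 and 7.78 in the wild type and between 7.07 and 7.42 in knockout-labelled arrays, with differences of -0.24 and -0.29 that did not pass (limma adjusted p = 0.703 and 0.462).

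The signalling kinases Irak1 and Irak2 gave no called genotype difference. Irak1 ranged from 9.16 to 9.69 in wild-type and from 9.28 to 9.95 in knockout-labelled arrays. Its difference was 0.20 in control cells (interval -0.21 to 0.60) and 0.01 without knockout-labelled control array 3, which held the highest value; it was 0.08 without wild-type control array 2 and 0.30 without knockout-labelled control array 1. Irak2 ranged from 8.50 to 8.89 and from 8.47 to 8.77, with differences of -0.04 (interval -0.28 to 0.21) and -0.17 (interval -0.41 to 0.08).

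**Figure D2:**
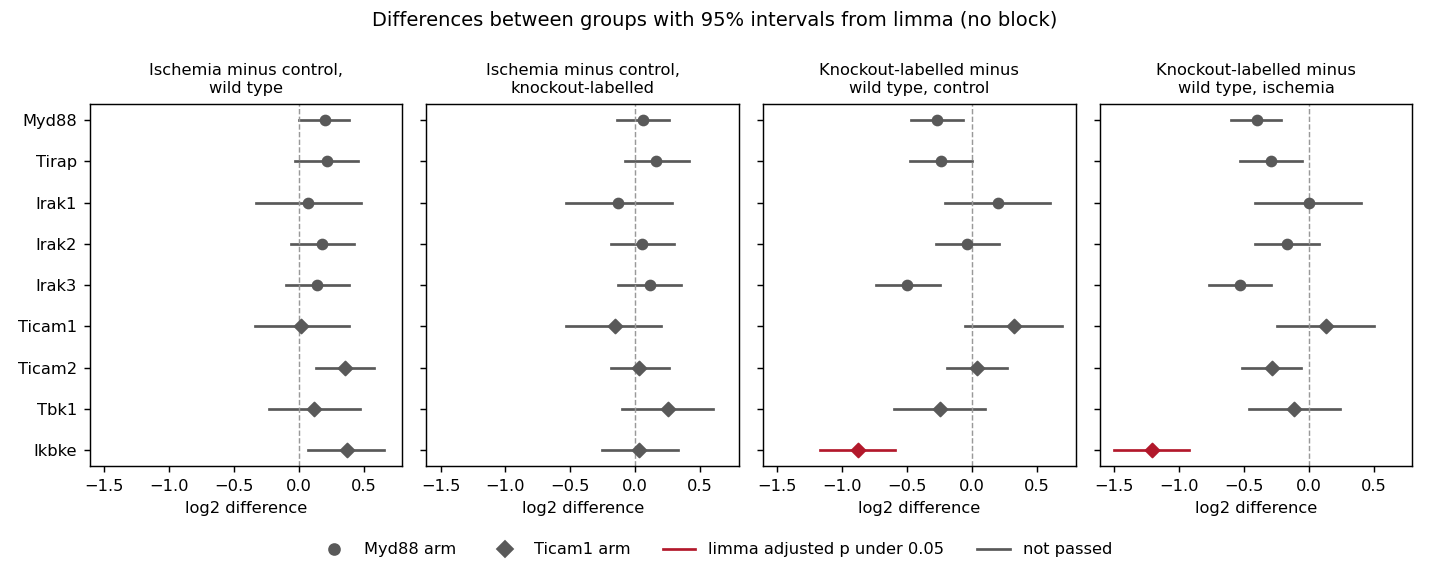
Differences of log2 signal (horizontal axis) with 95% limma intervals for the 9 genes in 4 comparisons, with circles for the Myd88 arm, diamonds for the Ticam1 arm and red for an adjusted p under 0.05. The only red intervals are those of Ikbke between genotypes, at -0.88 in control cells and -1.21 after ischemia.

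Counted over the set, groups did not overlap for 3 of 9 members in control cells (Myd88, Irak3 and Ikbke), against 9.89% of all genes. After ischemia it was 5 of 9 (those plus Tirap and Ticam2), against 16.5%, and all were lower in the knockout-labelled arrays. The median difference of the members was -0.24 in control cells and -0.28 after ischemia, where the medians over all genes tested were 0.00 and 0.01. In bulk RNA, fewer cells of a type and less RNA per cell cannot be told apart. The mean of the 9 microglia markers was 9.50 to 10.08 in wild-type and 9.58 to 9.76 in knockout-labelled control arrays, but 9.66 to 10.09 and 9.47 to 9.56 after ischemia, without overlap. Oligodendrocyte lineage markers (7 of 8 measured) also did not overlap after ischemia, at 6.43 to 6.83 and 6.28 to 6.40. In control cells these markers overlapped, at 6.53 to 7.16 and 6.44 to 6.55. Wild-type array 1 was the highest in both conditions. The part of these shifts in the member differences was not tested.

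Ikbke, Irak3 and Myd88 separated the genotypes together, so the DNA just upstream of their starts is shown. The windows are the 250 bases before each start in RefSeq (GRCm38.p6), 5′ to 3′ on the strand of the gene, for Ikbke on the minus strand at chr1:131279564-131279813, Myd88 on the minus strand at chr9:119340019-119340268 and both listed starts of Irak3 on the minus strand at chr10:120201598-120201847 and chr10:120202131-120202380. Capitals mark matches to the core of the interferon-stimulated response element or to the gamma-activated site.
Ikbke: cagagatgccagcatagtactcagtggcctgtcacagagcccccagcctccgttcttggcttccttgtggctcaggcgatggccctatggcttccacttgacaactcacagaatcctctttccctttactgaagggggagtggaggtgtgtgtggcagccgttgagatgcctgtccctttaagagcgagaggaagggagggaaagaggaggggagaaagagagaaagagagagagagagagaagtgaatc
Myd88: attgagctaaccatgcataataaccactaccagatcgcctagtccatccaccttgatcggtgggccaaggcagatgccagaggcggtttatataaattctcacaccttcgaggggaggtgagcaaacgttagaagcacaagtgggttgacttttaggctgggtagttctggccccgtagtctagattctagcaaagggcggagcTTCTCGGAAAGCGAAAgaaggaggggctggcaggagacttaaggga
Irak3, start 1: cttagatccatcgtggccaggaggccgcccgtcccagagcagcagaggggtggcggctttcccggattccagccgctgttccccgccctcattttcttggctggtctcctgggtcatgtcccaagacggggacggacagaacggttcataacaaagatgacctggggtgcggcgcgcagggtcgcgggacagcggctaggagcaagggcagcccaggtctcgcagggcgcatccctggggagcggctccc
Irak3, start 2: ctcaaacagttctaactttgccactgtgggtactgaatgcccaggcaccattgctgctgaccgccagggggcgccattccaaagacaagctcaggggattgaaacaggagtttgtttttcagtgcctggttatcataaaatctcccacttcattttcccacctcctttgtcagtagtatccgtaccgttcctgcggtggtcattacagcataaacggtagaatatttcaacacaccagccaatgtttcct

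Both strands were searched for TTTCNNTTTC, the response element core, for TTCNNNGAA, the gamma-activated site, and for the NF-kB consensus. Of 32851 such windows in the table, 2.98% held the first, 7.02% the second and 3.90% the NF-kB consensus. The Myd88 window held a response element core from 40 to 31 bases before the start, overlapping a gamma-activated site match from 46 to 38 bases before it. The Ikbke window and both Irak3 windows held none of these letters. Neither did the windows listed for Tirap, Irak1, Irak2, Irak4, Ticam1 and Tbk1. A match is a run of letters, not a measured binding site.

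The set was then compared between ischemia and control in wild-type microglia. All 9 members had a higher mean after ischemia, by 0.02 to 0.37 with a median of 0.18, where 52.4% of all genes were higher and their median was 0.01. The count rested in part on single arrays, since the smallest changes turned sign without 1 of them: Irak1 to -0.04 without wild-type ischemia array 3 or control array 2, Tbk1 to -0.02 without control array 1, and Ticam1 to -0.03 without control array 3. Ikbke had the largest difference, 0.37 (1.29-fold), followed by the bridging adaptor Ticam2 at 0.36 (1.28-fold). After quantile normalization of the deposited values these 2 were 0.28 and 0.25, and after median centring 0.43 and 0.42. The count of 9 higher members was not checked under these settings. Without a block for the replicate number, limma called 0 members, 2 had an unadjusted p under 0.05, and 0.0131% of all genes were called.

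Ikbke changed by 0.36, 0.34 and 0.40 in pairs 1, 2 and 3, so that the groups did not overlap. It did not pass without the block (SE 0.14, limma adjusted p = 0.286). Over all 27 alternatives, with and without the block, the limma adjusted p of Ikbke ran from 0.0393 to 0.64. The 3 alternatives that passed all held the replicate block within genotype. In the paired fit, which gives each number its own replicate block in each genotype, Ikbke rose with an adjusted p = 0.0431 in limma (block SE 0.09, interval 0.17 to 0.56). That fit called 1 of 9 members and 3.73% of all genes. The paired call was lost without wild-type pair 1, 2 or 3 (limma adjusted p = 0.232, 0.0974 and 0.162) or knockout-labelled pair 2 (limma adjusted p = 0.0721), and the change stayed at 0.35 to 0.38.

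Ticam2 read 8.24, 8.07 and 7.98 in wild-type control arrays and 8.43, 8.41 and 8.52 after ischemia. Its pairs changed by 0.19, 0.35 and 0.53, and the groups did not overlap (SE 0.10, limma adjusted p = 0.267; paired fit 0.0691). Myd88 changed by 0.17, 0.20 and 0.21, also without overlap, a mean of 0.20 (interval 0.00 to 0.39, limma adjusted p = 0.341; paired fit 0.215). Ikbke, Ticam2 and Myd88 were the 3 members of 9 whose wild-type groups were apart, against 21.7% of all genes.

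The other wild-type changes did not pass the test in either fit. Tirap was higher in 3 of 3 pairs, by 0.25, 0.08 and 0.32, and Irak2 by 0.14, 0.14 and 0.26 (limma adjusted p = 0.381 and 0.447). Irak3 changed by -0.06, 0.11 and 0.38, Irak1 by -0.10, 0.04 and 0.27, Tbk1 by 0.35, 0.11 and -0.10, and Ticam1 by -0.10, -0.01 and 0.18. Their mean changes were 0.14, 0.07, 0.12 and 0.02.

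In knockout-labelled microglia no member of the set passed after the same exposure. The mean change was above zero for 7 members and below it for 2, with a median of 0.05. Limma called 0 members without the block and 0 with it, 0 had an unadjusted p under 0.05, and the 2 fits called 0% and 0.648% of all genes. No member had groups apart, where 14.3% of all genes did. Ikbke changed by 0.13, -0.06 and 0.04 (mean 0.03, interval -0.26 to 0.33), and Ticam2 by 0.22, -0.09 and -0.03 (mean 0.03, interval -0.19 to 0.26).

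The largest mean change there was that of Tbk1, 0.25, which came from pair changes of -0.14, 0.19 and 0.71. Ticam1 and Irak1 had the lowest, -0.16 and -0.13. These changes depended on single arrays. Without knockout-labelled control array 3 the changes of Tbk1, Ticam1 and Irak1 were 0.07, 0.04 and 0.05, the last 2 with the sign turned. Without knockout-labelled control array 1 they were 0.41, -0.34 and -0.24. No change of these 3 genes was called on leaving out any array.

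**Figure D3:**
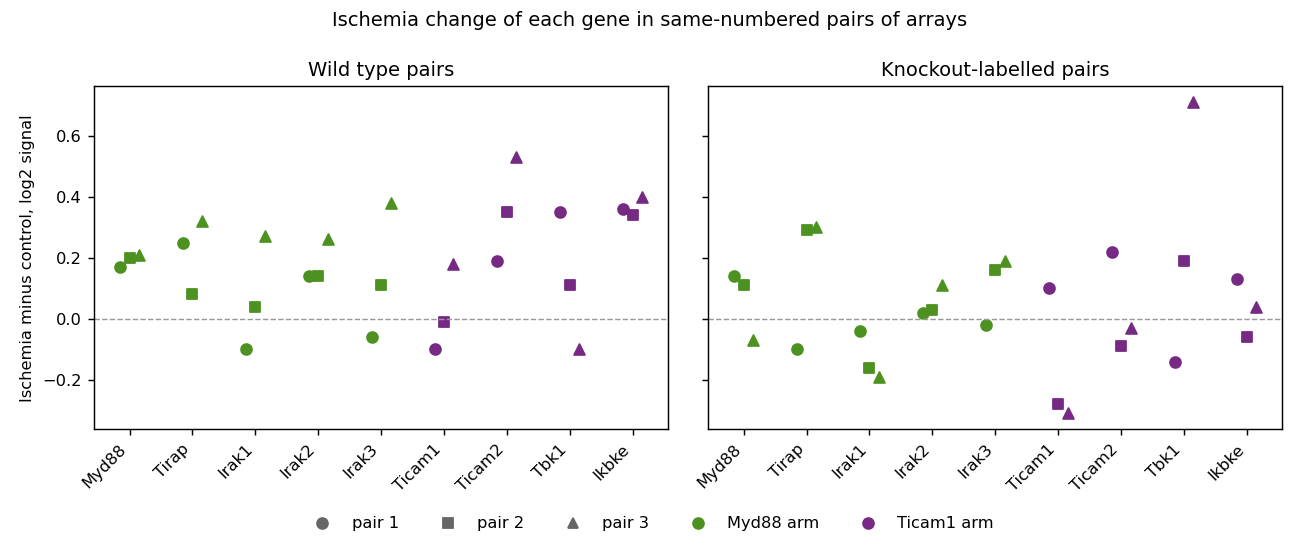
Ischemia minus control in log2 signal (vertical axis) for each gene in the 3 same-numbered pairs of wild-type (left) and knockout-labelled arrays (right), green for the Myd88 arm and purple for the Ticam1 arm. Wild-type Ikbke points lie at 0.34 to 0.40, while the knockout-labelled ones lie at -0.06 to 0.13.

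Whether ischemia acted differently in the 2 genotypes was tested as the difference of the 2 changes. For Ikbke it was -0.33 (interval -0.75 to 0.08; paired fit -0.61 to -0.05) and for Ticam2 -0.32 (interval -0.65 to 0.00; paired fit -0.64 to -0.01). Neither passed over all genes (limma adjusted p = 1 for both; paired fit 0.535 and 0.578). Limma called 0 members in either fit, with 1 at an unadjusted p under 0.05 without the block, and called 0% and 0.308% of all genes.

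Neither arm moved more than the other in all 3 pairs of a genotype. In wild-type pairs 1, 2 and 3 the mean change of the 5 Myd88-arm genes was 0.08, 0.11 and 0.29, and that of the 4 Ticam1-arm genes 0.20, 0.20 and 0.25. The Myd88 arm minus the Ticam1 arm was thus -0.12, -0.08 and 0.04, a mean of -0.05 ± 0.08 (SD, n = 3 pairs). In knockout-labelled pairs the same quantity was -0.07, 0.15 and -0.04, a mean of 0.01 ± 0.12 (SD, n = 3 pairs). In both genotypes the sign differed among the pairs, and the mean was smaller than the SD.

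Between genotypes the mean difference of the Myd88 arm was -0.17 in control cells and -0.28 after ischemia, and that of the Ticam1 arm -0.19 and -0.37. The Ticam1-arm value rested on Ikbke: over the other 3 genes the mean was 0.04 and -0.09. Within each arm, members therefore ranged widely, from -0.53 to 0.00 in the Myd88 arm and from -1.21 to 0.13 in the Ticam1 arm after ischemia.

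The genes around the set were read from lists of the same pathway. Between genotypes, 0.0589% of all genes were called in control cells and 0.714% after ischemia. Of 16 measured Toll-like receptors and co-receptors, 1 was called lower in knockout-labelled cells in each condition. It was Tlr2, a receptor for bacterial lipoproteins that uses Tirap and Myd88, with differences of -0.76 in control cells and -1.14 after ischemia (limma adjusted p = 0.0364 and 0.000584). In the wild type 0 of the 16 were called with ischemia without the block, and 4 rose in the paired fit, which called 3.73% of all genes. Among these 4 were Tlr3, the double-stranded RNA receptor that uses Ticam1, by 0.79, and Ly86, the partner of Cd180, by 0.62 (limma paired-fit adjusted p = 0.00362 and 0.0161, and 0.29 and 0.381 without the block).

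Downstream of the adaptors, none of the 11 genes of the TRAF and TAK1 relay or of the 10 MAP kinase genes was called in any comparison, with medians between -0.06 and 0.11. Between genotypes after ischemia, 0.714% of all genes were called and 52.7% were higher in knockout-labelled cells. Of 10 genes of the IKK complex and NF-kB, 9 lay lower in knockout-labelled cells after ischemia (median -0.28) and 1 was called. It was the NF-kB inhibitor and target Nfkbia, at -0.76 (limma adjusted p = 0.0179). Of 7 TBK1 scaffolds and interferon regulatory factors, 2 were called lower in the same comparison. These were Azi2, a scaffold that binds Tbk1 and Ikbke (-0.61, limma adjusted p = 0.0190), and Irf7 (-3.94, limma adjusted p = 0.0108). In control cells Nfkbia differed by -0.51, Azi2 by -0.18 and Irf7 by -2.19, none called (limma adjusted p = 0.416, 0.705 and 0.54). There 8 of the 10 genes of the IKK complex and NF-kB lay lower (median -0.20), where 50.8% of all genes were higher.

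Among 8 tested brakes on the pathway, 1 was called lower after ischemia in knockout-labelled cells, where 0.714% of all genes were called. It was Trafd1, at -0.68 (limma adjusted p = 0.0375). In the paired fit, which called 3.73% of all genes, Trafd1 rose by 0.42 in wild-type cells (limma adjusted p = 0.0427). Without the block its limma adjusted p was 0.272. The 2 tested interleukin-1 family receptors had no call. Of 9 tested NF-kB-driven inflammatory genes 0 were called in any comparison. Their median was -0.05 in wild-type ischemia. Between genotypes it was -0.47 in control cells and -0.41 after ischemia. The mean of the 10 listed genes was 8.05 on wild-type control array 1 and 7.23 to 7.39 on the other wild-type arrays. Of 10 tested interferon-driven genes 0 were called in wild-type ischemia without the block and 9 rose in the paired fit, which called 3.73% of all genes. Between genotypes after ischemia, where 0.714% of all genes were called, 6 of the 10 were called lower in knockout-labelled cells. Among them were the chemokine Ccl5 (-4.51), the antiviral gene Rsad2 (-3.03) and Usp18, which dampens interferon signalling (-2.73). In control cells all 10 lay lower in knockout-labelled cells as well, with a median of -1.44 and 0 called. There Ccl5, Rsad2 and Usp18 differed by -2.58, -1.25 and -1. Within the set, the genotype difference farthest from 0 was that of Ikbke, -1.21.

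**Figure D4:**
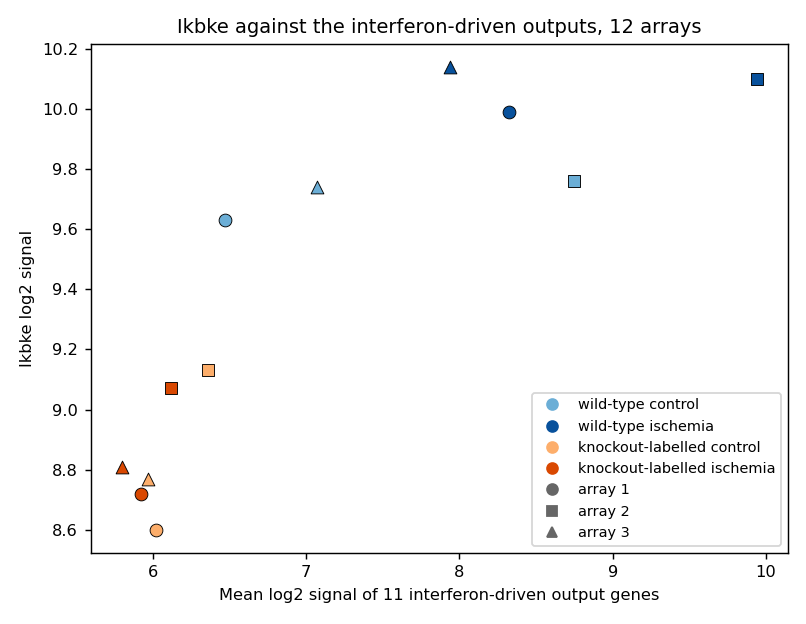
The log2 signal of Ikbke (vertical axis) against the mean log2 signal of 11 interferon-driven output genes (horizontal axis) on the 12 arrays, colours for the groups and symbols for the array number. Wild-type control arrays span 6.47 to 8.75 on the horizontal axis and 9.63 to 9.76 for Ikbke.

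In the wild type the interferon-driven outputs were highest on the arrays numbered 2, while Ikbke varied little within its groups. The mean of 11 output genes was 6.47, 8.75 and 7.07 in wild-type control arrays 1, 2 and 3 and 8.32, 9.94 and 7.94 after ischemia, while Ikbke ran from 9.63 to 9.76 and from 9.99 to 10.14. In knockout-labelled arrays 1, 2 and 3 the outputs were 6.02, 6.36 and 5.97 in control cells and 5.92, 6.12 and 5.80 after ischemia. There Ikbke was 8.60, 9.13 and 8.77 and then 8.72, 9.07 and 8.81. Both were thus highest on the knockout-labelled arrays numbered 2. The part of the interferon-driven outputs in the Ikbke difference was not tested.

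The genes whose signal tracked each member most closely over the 12 arrays were found by Pearson's r among all genes tested, as a description. The arrays share their genotype, exposure and pair, so r includes the gap between genotypes where there is one. For Ikbke they were the collagen cross-linking enzyme Lox (r = 0.962), the NAD kinase Nadk (0.956) and Acod1, which makes itaconate (0.956). For Irak3 they were Nadk (0.965), the matrix protein gene Tgfbi (0.951) and the kinase Map3k8 (0.942), and for Myd88 Ccl5 (0.955), Slfn5 (0.945) and the receptor Gpr84 (0.942). Irak1 and Ticam1, both highest on knockout-labelled control array 3, were nearest to Fam219a (0.980) and Timm13 (0.969), and Tbk1, lowest there, to Spopl (0.964). Tirap was nearest to Purg (0.972), Irak2 to Pik3r6 (0.949) and Ticam2 to Gys1 (0.868).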

How the data were processed

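Each sample's RNA was measured on an Affymetrix Mouse Gene 1.0 ST array. The authors deposited a log2 signal for every probe set; the submitters' processing notes name Affymetrix Expression Console 1.1 and RMA. The latter normalizes arrays by quantiles, so differences of total RNA cannot be seen. The platform annotation gave a single symbol to 21789 of 35557 probe sets and several symbols to 1621, and did not list 12147. Symbols were updated by Entrez identifier (21698 matched), the brightest probe set stood for a gene, and genes at or below the 30th percentile of probe set means were left out, leaving 15273.

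Group means were fitted over all 12 arrays with limma 3.58.1 (R 4.3.3), with Benjamini-Hochberg adjustment over all genes tested and calls at an adjusted p under 0.05. Exact permutation tests used scipy 1.17.1. The fits of wild-type ischemia against control, with and without the replicate block, were run on simulated data. The genotype comparisons were not simulated. Same-numbered arrays deviated together within a genotype. Correlations of their deviations from group means were 0.48 to 0.73 for wild-type numbers and 0.32 to 0.49 for knockout-labelled ones, each above 0.1. Differently numbered arrays reached at most 0.40 and 0.22. Between genotypes, same numbers gave -0.33 to 0.15 in control cells and -0.15 to 0.33 after ischemia. Of these, only number 3 exceeded 0.1, at 0.15 and 0.33. The paired fit therefore has a block for each genotype and number; that these numbers pair samples rests on the data, not on the labels.

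The members, arms and gene lists were chosen with earlier results of these data known. Named genes outside the set are up to 3 called genes of each pathway list with the smallest p, the likest gene or genes of each member, and Tlr4; of these, the ones printed are a selection. Other marker lists, not named in the results, covered monocytes and border macrophages, neutrophils, lymphocytes, astrocytes, neurons, fibroblasts and mural cells, and endothelium. After ischemia their array means lay between 5.12 and 6.24, and in control cells between 5.23 and 6.32. These means hide single bright markers, such as Mrc1 (11.17 over the 12 arrays), Vwf (9.70), Csf3r (8.86) and Aldh1l1 (8.16). Other markers of the lists lay below the dim filter, such as Ccr2 (4.83).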

Additional observations from a re-analysis of the deposited data

How the results depend on the processing

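The alternatives were the groups in the fit, the replicate block, quantile normalization or median centring of the deposited values, the filter on dim genes, the mean of all probe sets of a gene, limma-trend and leaving out each array. The 12 member differences with an unadjusted p under 0.05, without the block or in the paired fit, kept their direction in all of them: 248 values stayed on the same side of the threshold, 11 lost the call and 7 gained it. In control cells, the count of members called between genotypes was 1, and 0 with only the 2 groups compared (Ikbke limma adjusted p = 0.355) or after quantile normalization (adjusted p = 0.0624), and 0 to 1 on leaving out arrays. After ischemia it was 1, and 2 (Ikbke and Irak3) with the 3-level replicate block over all arrays, after median centring and when genes up to the 50th percentile were left out; leaving out arrays gave 1 to 2. The wild-type ischemia count was 0, and 1 with the replicate block within genotype, also without knockout-labelled pair 1 or 3; the block changed no other call in the ischemia comparisons. The cause was not tested. The arm differences moved by less than the SD between pairs in every alternative run. Each member had 1 probe set, so agreement between probe sets was not checked, and 3 arrays a group limit what can be detected.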
